A study of Mus musculus with 143 samples.

Results

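The fimbria is the white matter tract that carries axons into and out of the hippocampus. IBA1 is a calcium-binding protein of microglia, the resident macrophages of the brain, and antibodies to it are widely used to find these cells in sections. Microglia clear myelin and cell debris, and in old white matter they are known to gather and to change their state. SYTO83 is a dye for nucleic acids that marks the nuclei of every cell type, which in a tract such as the fimbria are mainly those of oligodendrocytes, astrocytes and microglia. The comparison described here sets the fimbria area lit by IBA1 against the fimbria area lit by SYTO83.

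The segments were chosen by their labels as fimbria with an IBA1 mask or with a mask of SYTO83 alone. They numbered 38 of the 143 segments of the series, 20 under IBA1 and 18 under SYTO83. Both masks came from the same 5 female C57BL/6 mice aged 28 months, for which the labels give no other genotype or treatment. Brain hemispheres had been fixed in 4% paraformaldehyde for 24 hours and cut into 5 µm paraffin sections. RNA was measured with the GeoMx mouse Whole Transcriptome Atlas, in which light releases the sequence tags of hybridized probes from a masked area and the tags are counted. A segment pools every cell and process under its mask, so fewer cells of a type and less RNA per cell cannot be told apart. The labels do not say whether the SYTO83 area leaves out IBA1-positive cells, nor whether the IBA1 area leaves out cells that also carry Galectin-3.

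Of the 38 segments, 33 had at least 1000 counts and at least 50% sequencing saturation (the share of aligned reads that repeat a molecule already counted), 17 under IBA1 and 16 under SYTO83. Of the other 5 segments, 4 had too few counts and 1 failed on saturation alone. Segments of the same mouse and mask were summed, which gave 5 IBA1 and 5 SYTO83 sums. The IBA1 sums of mice N101, N108, N110, N111 and N112 held 303341, 70784, 49194, 156675 and 27571 counts, and the SYTO83 sums of the same mice held 120329, 95498, 110375, 93981 and 28904. N101 gave 49.9% of all IBA1 counts, and the IBA1 sum of N112 rested on 1 segment. The files know the 20175 probes by code alone, and 0 of the codes stood in the gene table used for names. The IBA1 mask could therefore not be checked against microglial genes, and results are given for probes.

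In these mice a smaller share of the counts lay in the most abundant probes under IBA1 than under SYTO83. The 100 probes with the highest mean share over the 10 fimbria sums held 1.12%, 1.86%, 2.09%, 2.79% and 4.16% of the IBA1 counts of N101, N108, N110, N111 and N112. In the SYTO83 sums of these mice they held 2.76%, 4.25%, 5.22%, 4.93% and 5.71%. The probes were chosen on these same sums of both masks, and the top probes of each mask alone were not compared. The IBA1 share was the lower one in 5 of 5 mice, although the highest IBA1 value, of N112, lay above the lowest SYTO83 value, of N101. The means were 2.41% ± 1.15 under IBA1 and 4.57% ± 1.14 under SYTO83 (SD, n = 5 each), with a difference within mice of -2.17 ± 0.637 percentage points. An exact two-sided sign-flip permutation test over the mice gave p = 0.062. With 5 mice this test cannot go lower, so it could not reach the threshold of 0.05. Adjusted by Benjamini-Hochberg over 3 single values, the p was 0.0938.

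The number of probes with at least 1 count pointed the same way once depth was made equal. With each sum thinned to 27571 counts, the total of the smallest, an expected 14473 ± 233 probes were seen under IBA1 and 13978 ± 278 under SYTO83 (SD, n = 5 each). The IBA1 number was higher by 495 ± 158 probes and in 5 of 5 mice (exact sign-flip permutation p = 0.062, adjusted 0.0938). The aligned share, meaning the percentage of raw reads assigned to a probe tag and a sign of library quality, ran from 23.2% to 87.0% in the IBA1 sums and from 20.2% to 91.8% in the SYTO83 sums. Its difference within mice was 1.52 ± 15.3 percentage points, higher under IBA1 in 3 mice and lower in 2 (exact sign-flip permutation p = 0.812).

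The same 100 probes were then followed outside the fimbria, where they had not been chosen. Hippocampal IBA1 sums held 2.02% ± 0.541 of their counts in them and hippocampal SYTO83 sums 3.04% ± 0.944 (SD, n = 5 each). The IBA1 share was lower there in 4 of 5 mice and higher in N101, with a difference of -1.03 ± 1.14 percentage points (exact sign-flip permutation p = 0.188). In the cortex the shares were 1.72% ± 0.254 under IBA1 and 3.48% ± 0.417 under SYTO83 (SD, n = 3 mice with both masks), lower under IBA1 in 3 of 3 mice, with an exact p of 0.25 as the smallest possible. Whether the 3 regions differed in this share was not tested.

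**Figure D1:**
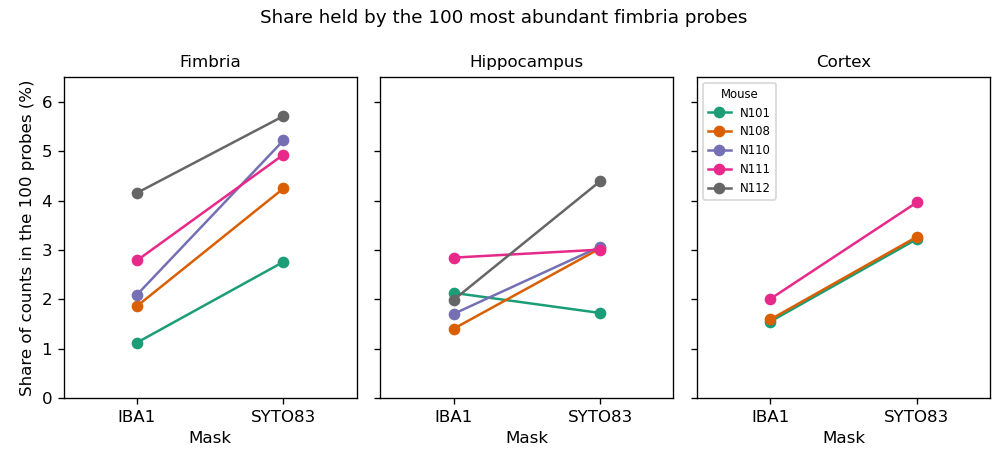
Share of counts in percent held by the 100 most abundant fimbria probes, with 1 line per mouse joining its IBA1 sum (left) to its SYTO83 sum (right) in the fimbria, hippocampus and cortex. In the fimbria the IBA1 value is the lower one in 5 of 5 mice, from 1.12% against 2.76% in N101 to 4.16% against 5.71% in N112.

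Of the 20175 probes, 866 had enough counts to be tested, and both directions of change were found among them. Under IBA1, 21 probes were higher (2.42% of those tested) and 24 were lower (2.77%) than under SYTO83, together 45 (5.2%), by edgeR's quasi-likelihood test with Benjamini-Hochberg adjusted p under 0.05. The higher probes had a median log2 fold of 1.29, a ratio of 2.45, with a range from 1.07 to 1.53. The lower probes had a median log2 fold of -1.03, a ratio of 0.489, with a range from -1.34 to -0.89. Over all 866 probes the median was -0.00, which trimmed-mean (TMM) scaling brings about, and 188 had an unadjusted p under 0.05. Higher and lower are thus relative to the tested probes. On library totals, without this scaling, their median was -0.446, and 3 of the 21 higher and 24 of the 24 lower calls remained. Just inside the threshold stood a probe with an adjusted p of 0.0453, and just outside it one with 0.0514.

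The 2 directions rested on different amounts of data. Each higher probe had 46 to 275 counts over the 5 IBA1 sums and 17 to 99 over the 5 SYTO83 sums. Each lower probe had 28 to 798 counts under IBA1 and 63 to 2115 under SYTO83. On scaled values, 14 of the 21 higher probes were higher in 5 of 5 mice, and 21 of the 24 lower probes were lower in 5 of 5 mice. The probes were called from these same mice, so this describes the calls, and the share over all tested probes is not given. The 5 IBA1 and 5 SYTO83 values did not overlap for 2 of the higher probes, where 0.808% of all tested probes stood apart in that direction, and for 7 of the lower probes, where 1.62% did. The largest share of a higher probe's counts that came from a single segment was 32.7%, and for the lower probes it was 13.7%.

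Single tissue areas gave a further view, since 13 fimbria areas had a passing segment of both masks. Measured as a share of the segment's counts, each lower probe was lower under IBA1 in 10 to 13 of these areas, with a median of 12. Each higher probe was higher under IBA1 in 6 to 12 areas, with a median of 9. At least 9 areas showed the direction for 14 of the 21 higher probes and for 24 of the 24 lower probes. These areas enter the sums that were tested, several come from the same mouse, and the shares carry no TMM scaling, so these counts describe the calls and do not test them. Without TMM scaling, on library totals, the median log2 fold of all 866 tested probes was -0.446, so unscaled shares favour the lower direction. Areas were not counted for the uncalled probes. With the fit limited to areas with both masks, edgeR called 5 of 1095 tested probes, of them 2 higher.

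The lower probes were mostly abundant ones. The tested probes were ranked by mean abundance over the 27 sums of the fit, and 22 of the 24 lower calls fell in the top group of 217 probes when the ranking was cut into 4 groups of near equal size, along with 6 of the 21 higher calls. In that top group the median log2 fold was -0.29 and 153 of 217 probes were below 0. The least abundant group had a median of 0.23, with 71 of 217 probes below 0, 4 higher calls and 0 lower calls. The middle groups had medians of 0.05 and -0.02. These medians are relative to the TMM scaling. On library totals the median of all 866 tested probes was -0.446. Abundance was averaged over both masks, and the power to call a probe grows with its counts. Of the 10 most abundant tested probes, 10 were lower under IBA1 and 7 of these were called.

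**Figure D2:**
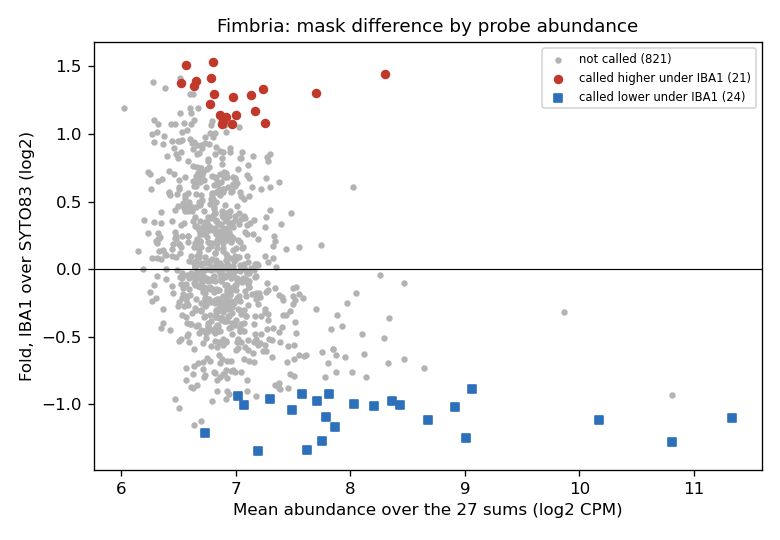
Log2 fold of IBA1 over SYTO83 in the fimbria (vertical axis) against mean abundance over the 27 sums in log2 CPM (horizontal axis), with 1 point per tested probe. The 24 lower calls reach up to the most abundant probe at 11.33, whereas the 21 higher calls end at 8.30.

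The most abundant tested probe is an example of the lower calls. Per 10000 counts, it had 4.65, 11.2, 20.9, 22.7 and 43.5 under IBA1 in N101, N108, N110, N111 and N112. Under SYTO83 it had 21.8, 33.4, 69.9, 59.1 and 71.6 in these mice. It was lower under IBA1 in 5 of 5 mice, and the groups overlapped, as the IBA1 value of N112 lay above the SYTO83 values of N101 and N108. Its log2 fold was -1.10 with a standard error of 0.33 (edgeR adjusted p = 0.0237). An even spread over all probes would give 0.496 per 10000.

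The 2 lower probes with the largest falls under the rule for named items were RTS0067278 and RTS0067786. RTS0067278 had 0.462, 1.13, 0.407, 0.702 and 1.45 per 10000 counts under IBA1 in N101, N108, N110, N111 and N112, against 1.99, 2.83, 1.99, 2.45 and 2.08 under SYTO83. The 5 IBA1 values all lay below the 5 SYTO83 values. Its log2 fold was -1.34 ± 0.32 (SE, edgeR adjusted p = 0.00351), and it was lower under IBA1 in 12 of 13 areas. Without N101 its log2 fold was -1.20 and it was no longer called. RTS0067786 had 0.593, 0.565, 1.83, 1.34 and 2.18 under IBA1, against 1.25, 2.93, 5.53, 4.58 and 5.88 under SYTO83. It was lower in each mouse and in 12 of 13 areas, with N101 low under both masks. Its log2 fold was -1.34 ± 0.29 (SE, edgeR adjusted p = 0.00181), and it was -0.33 and not called among segments with at least 75% of reads aligned. Both rested on modest numbers, 39 counts under IBA1 and 102 under SYTO83 for RTS0067278, and 58 and 164 for RTS0067786.

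The 2 higher probes with the largest rises under the same rule were RTS0065961 and RTS0071061. RTS0065961 had 5.34, 4.38, 3.46, 3.70 and 2.54 per 10000 counts under IBA1 in N101, N108, N110, N111 and N112, against 3.74, 1.36, 2.81, 0.958 and 0.346 under SYTO83. It was higher in each mouse and in 10 of 13 areas, and the groups overlapped through the SYTO83 values of N101 and N110. Its log2 fold was 1.44 ± 0.29 (SE, edgeR adjusted p = 8.59e-04), from 275 IBA1 and 99 SYTO83 counts. RTS0071061 had 2.87, 0.848, 1.02, 1.34 and 0.725 under IBA1, against 1.08, 0.419, 1.45, 0.745 and 0.346 under SYTO83. In N110 its unscaled IBA1 share was below the SYTO83 share, and after TMM scaling the 2 values were 121.3 CPM (counts scaled to the effective library total) under IBA1 and 120.9 CPM under SYTO83, so the direction in that mouse rests on the scaling. Its log2 fold was 1.33 ± 0.32 (SE, edgeR adjusted p = 0.00351), and 7 of 13 areas showed it. Without N101, the mouse with the highest IBA1 level, the log2 fold was 0.74 and the probe was no longer called.

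**Figure D3:**
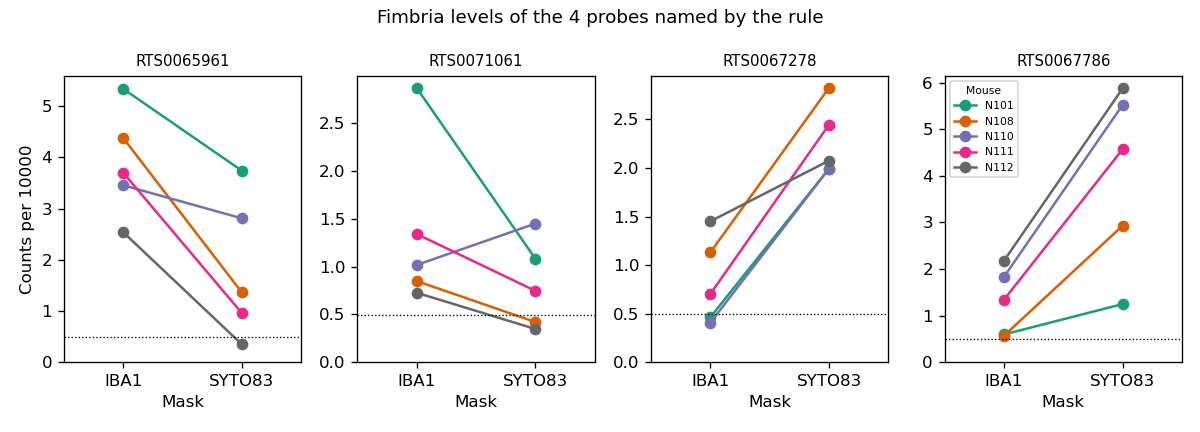
Counts per 10000 (vertical axis) of the 4 probes named by the rule, with 1 line per mouse joining its IBA1 sum (left) to its SYTO83 sum (right). The dotted line is an even share of 0.496. RTS0067278 is the 1 of the 4 whose IBA1 and SYTO83 values do not overlap, and RTS0071061 is lower under IBA1 in N110.

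The other fimbria masks, which entered no test here, placed the 4 probes as follows. RTS0065961 averaged 4.08 ± 0.991 per 10000 under the mask for IBA1 together with Galectin-3 (SD, n = 5) and 3.87 ± 1.74 under the Galectin-3 mask (SD, n = 4), beside 3.88 ± 1.05 under IBA1 and 1.84 ± 1.395 under SYTO83 (SD, n = 5 each). RTS0071061 averaged 1.41 ± 0.413 under both proteins and 0.704 ± 0.546 under Galectin-3, beside 1.36 ± 0.874 under IBA1 and 0.808 ± 0.462 under SYTO83. RTS0067278 averaged 0.694 ± 0.488 and 0.660 ± 0.548 under these 2 masks, beside 0.830 ± 0.449 under IBA1 and 2.27 ± 0.365 under SYTO83. RTS0067786 averaged 1.12 ± 0.493 and 0.971 ± 0.359, beside 1.30 ± 0.723 under IBA1 and 4.03 ± 1.93 under SYTO83. In these averages the 2 lower probes stood below SYTO83 under each of the 3 protein masks, while RTS0071061 stood below SYTO83 under Galectin-3 alone. The Galectin-3 averages rested on few counts, 37 in all for RTS0065961, 7 for RTS0071061, 7 for RTS0067278 and 10 for RTS0067786.

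The lower calls also gathered in the order of the probe codes. This was noticed after the values were seen, and the blocks of 500 consecutive code numbers used to describe it were set afterwards, so no test is given. A block with 494 codes in the files and 44 tested probes held 12 of the 24 lower calls and 0 of the 21 higher calls. These 12 lay within a span of 163 code numbers, and RTS0067786 was among them. Of the 43 blocks with tested probes, no other held more than 2 lower calls, and the higher calls were spread over 15 blocks with at most 3 in any of them.

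The tested but uncalled probes of that block were also low under IBA1. Its 44 tested probes had a median log2 fold of -0.64, with 39 below 0, against a median of 0.02 with 396 of 822 below 0 for the tested probes outside it. Among its 32 tested but uncalled probes the median was -0.52. A probe could pass the count filter through its SYTO83 sums alone. Abundance went with the block, as 28 of its 44 tested probes were in the most abundant group. Within that group the block's 28 probes had a median of -0.77 and the 189 others had -0.20. All probes of the block together held 2.19%, 2.51%, 2.63%, 2.88% and 3.55% of the IBA1 counts of N101, N108, N110, N111 and N112. They held 3.003%, 3.43%, 4.78%, 4.297% and 4.66% of the SYTO83 counts, so the block's share was lower under IBA1 in 5 of 5 mice. This share includes the called probes for which the block was singled out. The 44 tested probes alone held 0.925% ± 0.486 under IBA1 and 2.09% ± 0.701 under SYTO83 (SD, n = 5 each). All probes of the block held 2.75% ± 0.512 and 4.03% ± 0.782. Most of the gap thus lay in the tested probes, and the share does not show a fall across the block. Under both proteins the share of all probes of the block was 2.83% ± 0.375 (SD, n = 5), and under Galectin-3 2.51% ± 0.212 (SD, n = 4). The files do not say how code numbers were assigned, and the part of the assignment in this pattern was not tested.

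**Figure D4:**
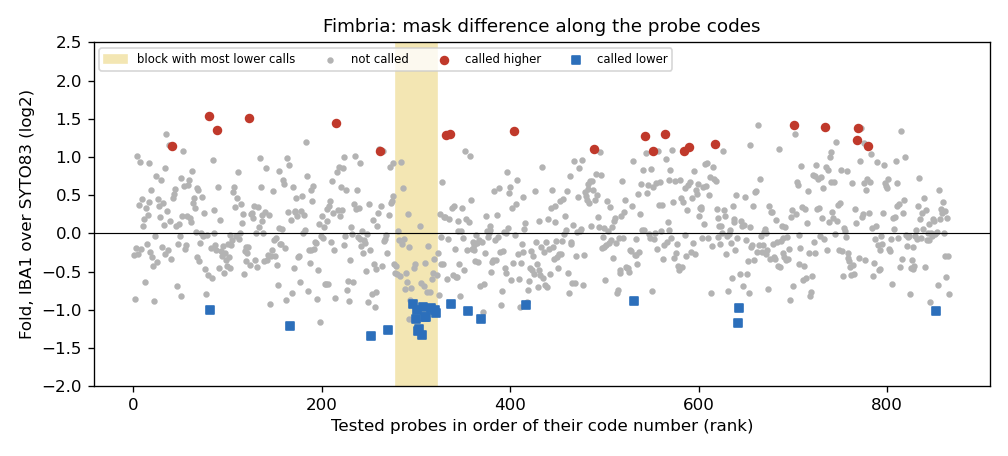
Log2 fold of IBA1 over SYTO83 in the fimbria (vertical axis) for the 866 tested probes in the order of their code numbers (horizontal axis, rank). The shaded block of 44 tested probes holds 12 of the 24 lower calls and 0 of the 21 higher calls.

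The same mask difference was measured in the hippocampus and cortex of these mice. Of the 21 probes higher in the fimbria, 19 had a positive log2 fold in the hippocampus (median 0.38) and 19 in the cortex (median 0.65). Of the 24 lower probes, 18 were negative in the hippocampus (median -0.35) and 23 in the cortex (median -0.76). Over all 866 probes the medians were 0.04 and -0.04, with 475 positive and 391 negative in the hippocampus and 420 positive and 446 negative in the cortex. Of the 45 probes, 0 were themselves called in either region. By edgeR, 0 probes were higher and 1 was lower (0.115%) in the hippocampus, and 1 was higher (0.115%) and 1 lower (0.115%) in the cortex. Unadjusted p-values under 0.05 were found for 4.85% of the tested probes in the hippocampus and 12.5% in the cortex, and DESeq2 called 0 and 2 probes there.

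A larger number of calls in the fimbria does not show that the regions differ, and the difference of the mask folds was tested for that. Between fimbria and hippocampus, 1 of the 866 probes (0.115%) had a different mask fold by edgeR, with 58 at an unadjusted p under 0.05 and 0 called by DESeq2. Its log2 difference was 2.296 ± 0.52 (SE, edgeR adjusted p = 0.00935), made up of 0.21 ± 0.41 in the fimbria and -2.08 ± 0.31 in the hippocampus, and it was none of the 45 fimbria calls. Without N101, and again without N111, 0 probes were called in this test, and without N108 there were 2. Between fimbria and cortex, edgeR and DESeq2 both called 0 probes (0%), with 29 at an unadjusted p under 0.05 by edgeR. Of the 21 higher probes, 6 had an unadjusted p under 0.05 in the test against hippocampus and 3 in that against cortex. Of the 24 lower probes, 9 and 0 did. The median difference of the folds was 0.88 against hippocampus and 0.49 against cortex for the higher probes, and -0.62 and -0.30 for the lower probes. Probes chosen for large fimbria folds would tend to show such medians, so they carry no weight for a regional difference.

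**Figure D5:**
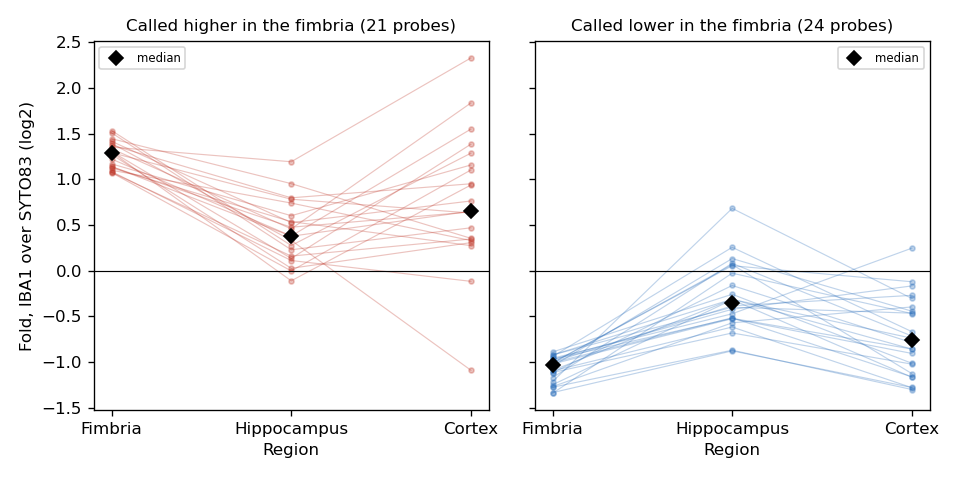
Log2 fold of IBA1 over SYTO83 in the fimbria, hippocampus and cortex for the 21 probes called higher in the fimbria (left panel) and the 24 called lower (right panel), with 1 thin line per probe and a diamond at the median. Medians are 1.29, 0.38 and 0.65 on the left and -1.03, -0.35 and -0.76 on the right.

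The counts of calls depended on many of the choices tried. Called probes that were still tested kept their direction in the 22 alternatives tried. These alternatives reuse the counts from which the probes were called, so the kept signs are no separate support. Of the 21 higher calls, 4 were tested with the groups compared alone, 5 on plate B alone and 5 at 75% or more aligned reads. With library totals in place of TMM, 3 probes were higher and 137 lower. All 24 lower calls and 3 of the 21 higher calls remained, and the median log2 fold of the 866 probes was -0.45. With no count filter 23 lower and 0 higher calls remained, at a median of -0.565 for the 866 probes. Both settings lowered the folds of the 866 probes as a set, which favours lower calls among them. With no count filter the median over all 20175 probes was -0.0262. DESeq2 kept 12 of the 21 higher and 8 of the 24 lower calls, and no mouse block 10 and 6. At 75% or more aligned reads, 4 of the 5 higher and 0 of the 21 lower calls that were tested remained. Segments as observations kept 9 and 21, so neither direction was kept better throughout. With DESeq2 and its size factors, 13 probes were higher and 9 lower. Among segments with at least 75% of reads aligned, 206 probes could be tested, of which 7 were higher and 0 lower by edgeR, with 13 lower at an unadjusted p under 0.05. The tested probes held 9.25% ± 2.42 of the IBA1 counts and 13.04% ± 1.96 of the SYTO83 counts (SD, n = 5 each), and changes are therefore given relative to the tested probes. Libraries came from plates A and B, with N101 and N108 on A, N112 on B, and N110 and N111 on both. Plate A alone gave 11 higher and 12 lower calls, and plate B alone, with 3 mice and 442 probes tested, gave 0 by edgeR with 28 higher and 19 lower at an unadjusted p under 0.05. Without the mouse as a block, 10 probes were higher and 6 lower. The numbers of higher and lower calls were 4 and 3 without N101, 10 and 18 without N108, 5 and 7 without N110, 12 and 20 without N111, and 25 and 49 without N112.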

How the data were processed

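GeoMx probe tags were counted in segments of 5 mice. The deposited values are unnormalized counts per probe, with duplicate molecules removed. The software was the GeoMx NGS Pipeline 2.3.3.10, per the file headers, and the build was GRCm39, per the submitters' processing notes. The aligner is not given in the sources used here. The reference table listed 49997 genes, none of them by probe code, so the planned marker and gene lists were not run and no sequence is printed.

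Segments with at least 1000 counts and 50% saturation were summed by mouse, region and mask, and sums with at least 5000 counts entered. Mice are the replicates. The fit used edgeR 4.0.16 (R 4.3.3, quasi-likelihood, TMM, filterByExpr minimum count 10) on 27 sums in 6 groups, from the fimbria, hippocampus and cortex under IBA1 and SYTO83, with the mouse as a block. Both masks come from the same mice by their labels, and the same-mouse correlation of deviations from the group mean was 0.38, 0.06, 0.10, 0.04 and 0.13 in the fimbria for N101, N108, N110, N111 and N112. Common dispersion was 0.0399, and fimbria TMM factors ran from 0.714 to 1.32 under IBA1 and from 0.990 to 1.43 under SYTO83. Single values were tested by exact sign-flip permutation. Named probes are the 2 largest rises and 2 largest falls among called probes of above-median abundance that kept their direction in all 5 mice. The segments, thresholds, lists and rules were chosen with earlier results of these data known. The fit was tested on data simulated from a single profile, with no mouse effect and as many raised as lowered probes. That simulation did not test the choice of scaling.

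Alternatives were DESeq2 1.42.0, other scalings, filters, blocks and minimums, limma 3.58.1 on segments, subsets by alignment, area or plate, and each mouse left out. Leaving out the code block was added after seeing the data. Python 3.11.15, pandas 2.3.3, numpy 2.4.6 and matplotlib 3.10.9 were also used.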

Additional observations from a re-analysis of the deposited data

Results flagged for a closer look

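In 26 groups of 4 or more sums, the levels of the 4 named probes were searched for a sum far from the rest of its group, a search that flags about 1 group in 20 by chance. RTS0071061 had 2.87 per 10000 counts in the fimbria IBA1 sum of N101, where the other IBA1 sums lay between 0.725 and 1.34. RTS0065961 had 2.33 per 10000 counts in the fimbria sum of N111 under the mask for IBA1 together with Galectin-3, below the other sums of that mask, which reached 4.67.

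The mask difference of 1 probe depended on the region by the edgeR test of the difference, with a log2 difference of 2.296 ± 0.52 (SE, adjusted p = 0.00935) between fimbria and hippocampus. In the hippocampus it had 80 counts under SYTO83, and its log2 fold there was -2.08. Over the alternatives, this test called 0 to 2 probes.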

How the results depend on the processing

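In the fimbria, where 21 probes were higher and 24 lower under IBA1, 45 in all, DESeq2 called 22, of them 13 higher, and library totals gave 140, of them 3 higher. With no count filter 119 were called, of them 8 higher, with no replicate block 16, of them 10 higher, in areas with both masks 5, of them 2 higher, and on plate A alone 23, of them 11 higher. With the leading code block left out, an alternative added after seeing the data, 24 were called, of them 11 higher. At 75% or more aligned reads 7 were higher and 0 lower by edgeR, with 13 lower at an unadjusted p under 0.05. On plate B alone, edgeR called 0 of 442 probes, with 28 higher and 19 lower at an unadjusted p under 0.05. Leaving out each mouse gave 7 to 74 calls, of which 4 to 25 were higher and 3 to 49 lower. The totals of the other settings stayed within 1.5 times, but with different probes in part. With the groups compared alone, 436 probes were tested, only 4 of the 21 among them, and 19 were higher, including these 4. With segments as observations 17 were higher, of which 9 were among the 21. In each of the 22 alternatives, every called probe that was still tested kept its sign. Which direction kept more of its calls depended on the setting. The alternative without single-segment probes removed 0 of the tested ones. RTS0071061 was no longer called by DESeq2, with library totals, with no count filter, with segments as observations or without N101. RTS0065961 was not called with no count filter (log2 fold 0.91), RTS0067278 without N101 or at 75% aligned reads (-0.97), and RTS0067786 at 75% aligned reads (-0.33). On plate B alone the 3 of the 4 that were tested were not called.

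The 1 probe called between fimbria and hippocampus gave way to 0 with DESeq2, library totals, no count filter, segments as observations, 75% aligned reads, plate A or plate B alone, to 2 in areas with both masks, and to 0 to 2 with a mouse left out. Fimbria against cortex gave 0 throughout (29 unadjusted in the fit reported, DESeq2 0), and plate B held no cortex pair. The difference in aligned share turned to -0.478 without N111 and -3.38 without N112, and ran up to 6.56 with a mouse left out. It was 19.9 on plate A alone. The other single values kept their direction, with the share of the 100 probes between -2.32 and -1.93 and the detected probes between 450.4 and 553 when a mouse was left out. The difference in detected probes was 274.0 at 75% or more aligned reads and 331.5 in areas with both masks. Causes of these changes were not tested. The count filter left 866 of 20175 probes, in sums of 15687 counts or more. Of the 119 calls with no count filter, 23 were among the 45, and of the 74 without N112, 30 were.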
